A study of Rattus norvegicus with 3 samples.

Results

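Neutrophil primary granule proteases and defensins were examined as 9 genes: Mpo, Elane, Prtn3, Ctsg, Np4, Defa5, Defa11, RatNP-3b and Serpinb1a. They were selected by gene name, with their levels in the clusters and libraries of these data already known, and they are 9 of 20896 gene names listed in 3 deposited tables. Their levels are therefore given as a description, above all those in the chondrocyte-like clusters. Primary granules, also called azurophil granules, are the first storage granules a neutrophil makes, and their proteins are made at the promyelocyte stage in the bone marrow. Genes of the secondary granules follow later in maturation, when transcription of the primary granule genes has ended, so that a circulating neutrophil carries these proteins with little of their RNA. Marrow lies in the subchondral bone under the cartilage of a joint, and released granule proteases can cut proteins of the cartilage matrix.

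RNA of single cells from the condyles of the rat temporomandibular joint, the jaw joint, was measured in 3 libraries. Sham rats were kept for 8 weeks after an injection of Vector AAV (an adeno-associated virus without the miRNA) without UAC, a unilateral anterior crossbite, which is an experimental disorder of the bite. UAC rats received Vector AAV and UAC for 8 weeks, and UAC + miR-330 rats received miR-330 AAV with the same UAC. All were wild-type SD rats kept under specific-pathogen-free conditions, all were injected with AAV into the joint, and their age is not given in the sources used here. Each library pooled 16 condyles of 8 rats, the rats of a pool cannot be told apart, and there was 1 library per group. No test between groups was therefore made, and no difference below has a replicate check. The tables held 77668015 UMIs (unique molecular identifiers, each counting 1 captured RNA molecule) in 15 clusters for sham, 92629658 in 18 clusters for UAC and 97255383 in 19 clusters for UAC + miR-330. Levels are UMIs per 1000000 UMIs (CPM) of a library or of a cluster, and the ranges after them are exact 95% intervals, Poisson for levels and binomial for shares, which cover counting error only. Sums over a cluster or library cannot tell fewer cells of a type from less RNA per cell. The kit counts the 3′ end of a transcript, and the most abundant gene of a list is the one with the most UMIs.

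The labels name cartilage and subchondral bone as the tissue and chondrocytes and osteoclasts as the cells. Chondrocyte markers were enriched in 1 cluster per library, which held 11.6% of the UMIs in sham, 6.46% in UAC and 6.05% in UAC + miR-330. Chondrocyte markers summed to 7575 CPM in sham, 3357 in UAC and 4121 in UAC + miR-330, with Col2a1 the most abundant. Osteoclast markers summed to 310.1 CPM in sham, 306 in UAC and 275 in UAC + miR-330, with Acp5 the most abundant, and no cluster was named for them. In each library Acp5 was enriched in a cluster with B cell markers, and Mmp9 of the same list in clusters with neutrophil markers. The sum is therefore not a level of osteoclast RNA alone. Clusters were called granulocyte-like from markers of neutrophils and early granulocytes that include none of the 9 genes, with a scoring rule settled after the tables were seen. The study's methods describe clustering by the most variable genes of a matrix that joined the libraries, while the deposited tables hold clusters of each library alone, and the genes used for these are not given in the sources used here. The 9 genes may be among them, so their differences between clusters are a description. Granulocyte-like were clusters 8 and 10 in sham, 7, 8, 12 and 18 in UAC, and 6, 9, 15 and 18 in UAC + miR-330, with 10.0% of the UMIs in sham, 15.9% in UAC and 14.2% in UAC + miR-330. UAC cluster 18 and UAC + miR-330 cluster 18 are called early below, since Ms4a3, an early granulocyte marker, was among their 10 leading genes and no neutrophil marker was. One defining neutrophil marker was nearly missing: Ltf, which encodes lactoferrin of the secondary granules, was at 0.412 CPM in sham, 0.561 in UAC and 0.360 in UAC + miR-330. The summed level of the 14 neutrophil markers was 41516 CPM in sham, 64211 in UAC and 45188 in UAC + miR-330, with S100a9 the most abundant. The clusters were made in each library alone, so the same kind of cell may be grouped differently in each.

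Mpo encodes myeloperoxidase, the haem enzyme of the primary granule that makes hypochlorous acid from hydrogen peroxide and chloride. Its level over all clusters was 32.9 CPM in sham (31.7 to 34.2), 48.4 in UAC (47.0 to 49.9) and 49.95 in UAC + miR-330 (48.6 to 51.4). Mpo was higher in both UAC libraries than in sham, and those UAC libraries differed by a log2 ratio of 0.04 (−0.01 to 0.10), which is within counting error. The log2 ratio was 0.56 (0.49 to 0.63) for UAC against sham and 0.60 (0.53 to 0.67) for UAC + miR-330 against sham, comparisons that share the sham library.

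The serine proteases Elane, Prtn3 and Ctsg ranked the libraries in the same order, lowest in sham and highest in UAC + miR-330. Elane encodes neutrophil elastase, which cuts elastin and other matrix proteins. Elane was at 21.4 CPM in sham (20.3 to 22.4), 44.6 in UAC (43.2 to 46.0) and 66.8 in UAC + miR-330 (65.2 to 68.4). Its log2 ratio was 1.06 (0.98 to 1.14) for UAC against sham and 0.58 (0.53 to 0.64) for UAC + miR-330 against UAC. Prtn3 encodes proteinase 3, a close relative of elastase. Prtn3 was at 6.99 CPM in sham (6.42 to 7.61), 17.5 in UAC (16.6 to 18.3) and 27.9 in UAC + miR-330 (26.8 to 28.9). It had the largest log2 ratios of the 9 genes for UAC against sham, 1.32 (1.18 to 1.46), and for UAC + miR-330 against sham, 1.99 (1.86 to 2.13). Ctsg encodes cathepsin G, a protease with chymotrypsin-like specificity. Ctsg was at 15 CPM in sham (14.2 to 15.9), 32.1 in UAC (30.9 to 33.2) and 53.6 in UAC + miR-330 (52.2 to 55.1). Its log2 ratio was 1.10 (1.00 to 1.20) for UAC against sham and 0.74 (0.68 to 0.81) for UAC + miR-330 against UAC, the largest of the 9 genes in the latter comparison. For each of these 3 proteases the intervals of the 3 libraries did not overlap.

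**Figure D1:**
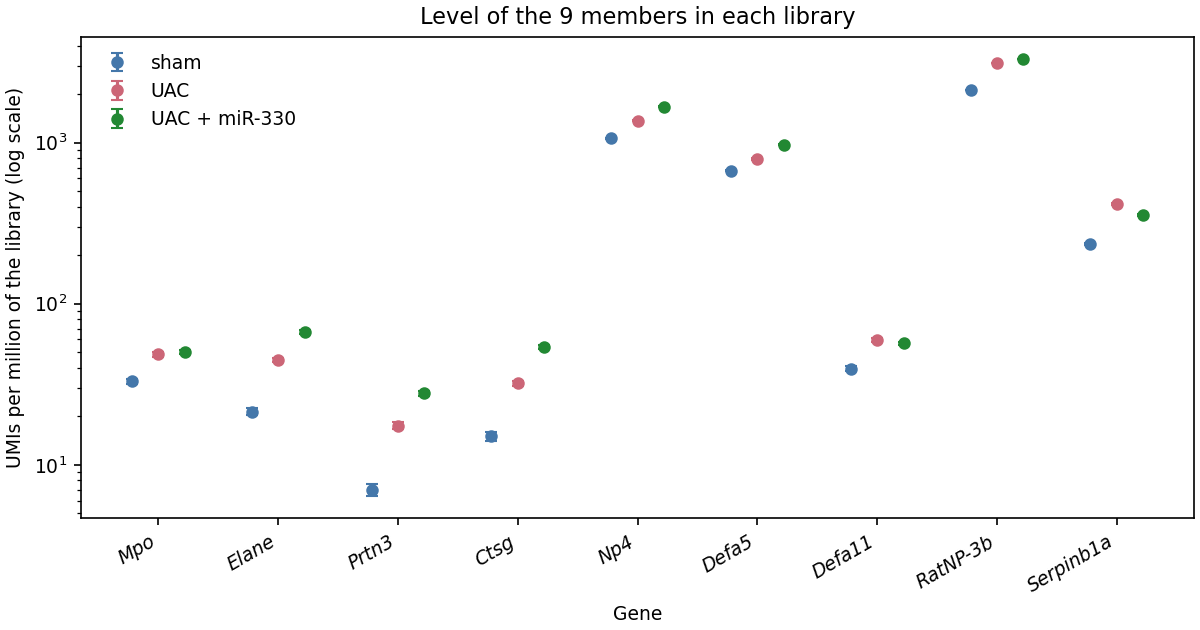
Level of each of the 9 genes in CPM of a library, on a log axis, with 1 point per library and bars for the exact Poisson 95% interval, often smaller than the point. Sham is the lowest library for each of the 9 genes, and Elane, Prtn3 and Ctsg are spread more widely between libraries than the defensins.

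The α-defensins are small cationic peptides that disrupt microbial membranes, and rats, unlike mice, store them in neutrophils. Np4 was at 1062 CPM in sham (1055 to 1070), 1367 in UAC (1360 to 1375) and 1677 in UAC + miR-330 (1669 to 1685). Defa5 was at 671 CPM in sham (665 to 677), 792 in UAC (786 to 798) and 973 in UAC + miR-330 (967 to 979.7). RatNP-3b was at 2121 CPM in sham (2111 to 2131), 3125 in UAC (3114 to 3136) and 3316 in UAC + miR-330 (3305 to 3328). These 3 defensins were lowest in sham and highest in UAC + miR-330, by smaller ratios than Elane, Prtn3 and Ctsg. The log2 ratio for UAC + miR-330 against sham was 0.66 for Np4. It was 0.54 for Defa5. It was 0.64 for RatNP-3b, most of it between sham and UAC, where the log2 ratio was 0.56 (0.55 to 0.57) against 0.09 (0.08 to 0.09) between UAC and UAC + miR-330. Defa11 differed from the others in order, at 39.5 CPM in sham (38.1 to 40.9), 59.8 in UAC (58.3 to 61.4) and 56.8 in UAC + miR-330 (55.3 to 58.3). These genes belong to a family of related copies. Their transcripts were not compared here, and how the authors' counting treated reads that match several of them is not given, so counts of a single defensin are uncertain, and their sum is given as well. The sum of the 4 defensins was 3894 CPM in sham (3879.8 to 3908), 5344 in UAC (5329 to 5359) and 6024 in UAC + miR-330 (6008 to 6039).

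Serpinb1a encodes an intracellular inhibitor of elastase, proteinase 3 and cathepsin G. Serpinb1a was at 234 CPM in sham (230.1 to 237), 416 in UAC (412 to 421) and 355 in UAC + miR-330 (351 to 359). The inhibitor was thus highest in UAC, where its proteases held the middle position. Its log2 ratio was 0.83 (0.81 to 0.86) for UAC against sham and −0.23 (−0.25 to −0.21) for UAC + miR-330 against UAC. The late neutrophil gene S100a8 had the same order as the inhibitor between UAC and UAC + miR-330, at 13738 CPM in sham, 19795 in UAC and 13807 in UAC + miR-330.

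Counted at a 2-fold difference with 0.5 UMI added to each count, 3 of the 9 genes were higher in UAC than in sham, namely Elane, Prtn3 and Ctsg, where 4.34% of 16687 genes whose UMIs over both libraries came to 10 or more were higher. None of the 9 was lower, where 2.98% of all genes were. Between UAC + miR-330 and UAC, 0 of the 9 were higher and 0 lower, against 4.26% and 2.34% of 16939 genes. Between UAC + miR-330 and sham, Elane, Prtn3 and Ctsg were again higher, 3 of 9 against 7.66% of 16771 genes, and 0 were lower, against 3.61%. The median log2 ratio of the 9 genes was 0.60 for UAC against sham, beside −0.02 for all genes. It was 0.29 for UAC + miR-330 against UAC, beside 0.13 for all genes. In that comparison 4 of the 9 lay below the median of all genes, Mpo at 0.04, RatNP-3b at 0.09, Defa11 at −0.08 and Serpinb1a at −0.23. On the scale of the deposited mean counts the log2 ratios of all genes shift together, by 0.20 for UAC against sham, 0.24 for UAC + miR-330 against UAC and 0.43 for UAC + miR-330 against sham. On that scale the sign of the ratio between UAC + miR-330 and UAC changes for Defa11, −0.08 in CPM, and for Serpinb1a, and 7 of the 9 genes are past 2-fold higher in UAC + miR-330 than in sham, where 21.7% of all genes are.

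Most RNA of Mpo and the 3 proteases lay in 1 cluster of each library, a cluster that also held markers of other cell types. In sham it was cluster 14, with 955 CPM of Mpo (907 to 1005), 57.9% of its UMIs in the library. Elane was at 710.0 CPM there, Prtn3 at 249 and Ctsg at 556. Each of these was the highest cluster value of its gene in sham. In UAC it was cluster 13, where Mpo was at 778 CPM (749 to 808), 59.3% of its UMIs. Elane was at 968 CPM there, Prtn3 at 434 and Ctsg at 728. Of Mpo a further 21.8% lay in UAC cluster 18, more than of the 3 proteases. In UAC + miR-330 it was cluster 18, where Mpo was at 1125 CPM (1090 to 1161), 80.7% of its UMIs. Elane was at 1621 CPM there, Prtn3 at 690.1 and Ctsg at 1236. These clusters ranked first for each of the 4 genes in their library, and the interval of the first never overlapped that of the second.

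Markers of other cell types went with these clusters. In sham cluster 14, 7 of 10 mast or basophil markers were enriched, with a summed level of 2614 CPM, Mcpt2 the most abundant at 1201 CPM and none at 0. Erythroid markers were enriched there for 8 of 12, summing to 76218 CPM with Hba-a1 at 50471, and eosinophil markers for 3 of 7, summing to 3462 CPM with Prg2 at 3101. Only 3 of 10 early granulocyte markers and 0 of 14 neutrophil markers were enriched in it, and plasma cell markers for 2 of 6, summing to 1811 CPM with Jchain at 1179.9. In UAC cluster 13, 8 of 10 mast or basophil markers were enriched, summing to 3502 CPM with Mcpt2 at 1538 and none at 0, and 5 of 6 plasma cell markers, summing to 3161 CPM with Mzb1 at 1755. Eosinophil markers were enriched there for 3 of 7, summing to 3857 CPM with Prg2 at 3676, and erythroid markers for 3 of 12, summing to 10264 CPM with Hba-a1 at 7040.3. Macrophage markers were enriched for 3 of 14 in each of these clusters, summing to 734 CPM in sham cluster 14 and 537 CPM in UAC cluster 13 with C1qa the most abundant. Early granulocyte markers were enriched for 3 of 10 there and neutrophil markers for 0 of 14. Sham cluster 14 and UAC cluster 13 are therefore called by number, and they held 1.99% and 3.69% of the UMIs of their libraries. UAC + miR-330 cluster 18 held 6 of 14 neutrophil and 5 of 10 early granulocyte markers together with 6 of 10 mast or basophil markers, which summed to 1234 CPM with Mcpt2 at 549 and 1 at 0. Prg2 was at 2283 CPM there, the only 1 of 7 eosinophil markers enriched, and 2 of the 7 were at 0. A separate cluster of that library, 19, held 8 of 10 mast or basophil and 11 of 14 T or NK markers, and Mpo, Elane, Prtn3 and Ctsg summed there to 8 UMIs. The part of these other cell types in the levels of the 9 genes was not tested.

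**Figure D2:**
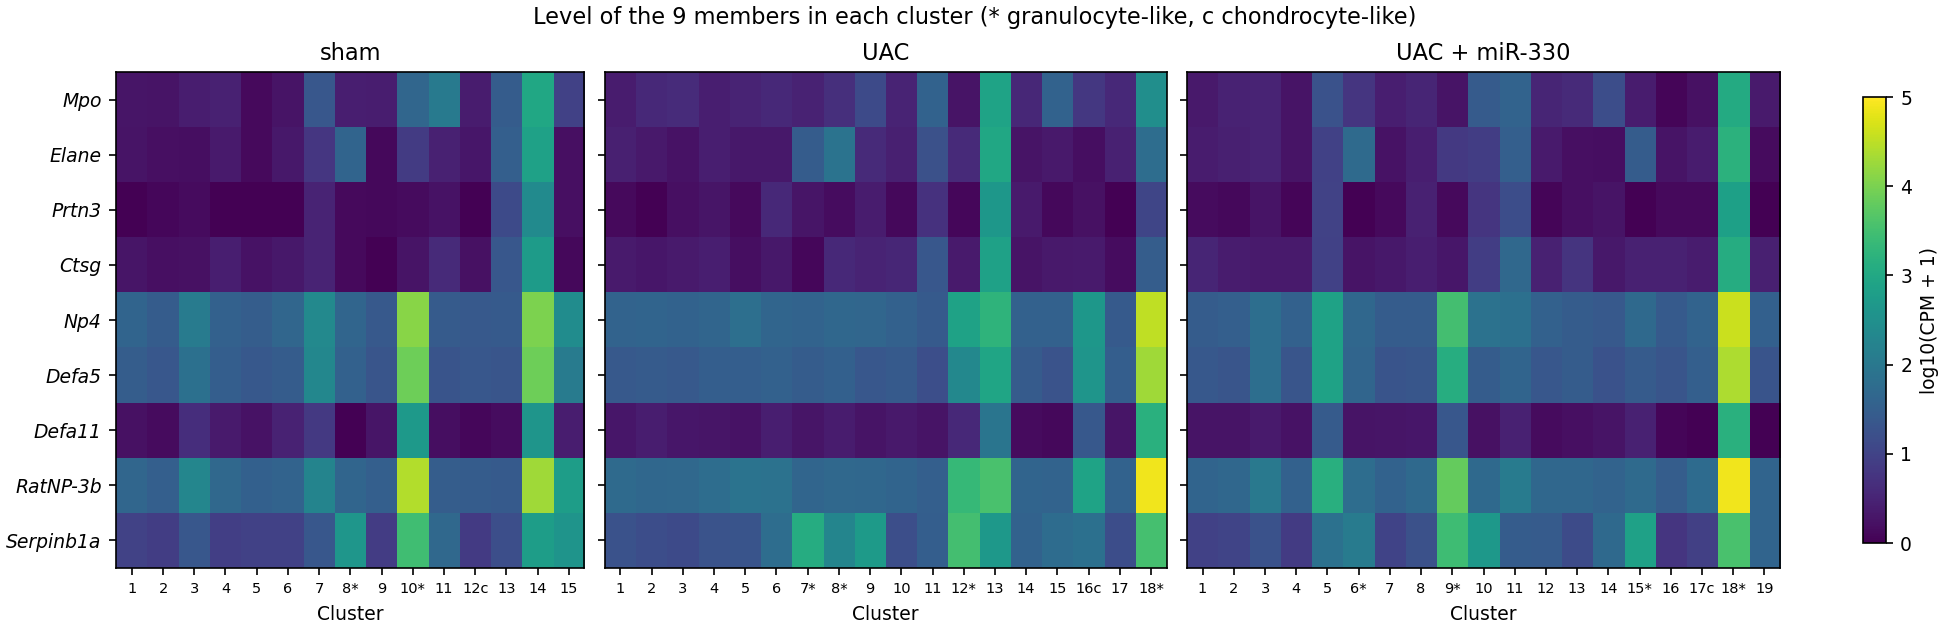
Level of each of the 9 genes in every cluster of the 3 libraries, as log10 of CPM plus 1, with granulocyte-like clusters marked by an asterisk and chondrocyte-like clusters by c. Mpo, Elane, Prtn3 and Ctsg peak in sham cluster 14, UAC cluster 13 and UAC + miR-330 cluster 18, and the defensins in sham cluster 10 (Defa5 also in sham cluster 14), UAC cluster 18 and UAC + miR-330 cluster 18.

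Defensin RNA was divided differently. In sham the 4 defensins summed to 48408.5 CPM in cluster 10 and 37752 CPM in cluster 14, so the cluster rich in proteases held 19.3% of the defensin UMIs of the library. In UAC they summed to 133150.0 CPM in cluster 18 and 6451 CPM in cluster 13, which held 88.7% and 4.46% of the defensin UMIs. In UAC + miR-330 they summed to 144248 CPM in cluster 18 and 11185 CPM in cluster 9, with 85.8% and 10.9%. Each library thus had 1 cluster with most of its defensin RNA, and that cluster was granulocyte-like. RatNP-3b was at 78172 CPM (77871 to 78475) in UAC cluster 18 and 79035 (78740.0 to 79331) in UAC + miR-330 cluster 18, intervals that lie just apart. Defa11 was at 1522 CPM (1480.0 to 1564) and 1507 (1466 to 1548) in the same clusters, intervals that overlap. In sham, Defa5 was at 7776 CPM in cluster 10 (7697 to 7856) and 7959 in cluster 14 (7819 to 8101), also overlapping, while Np4, Defa11 and RatNP-3b were highest in cluster 10 with intervals apart from those of cluster 14.

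The ratio of defensin to protease RNA therefore differed by cluster. For each UMI of Mpo, Elane, Prtn3 and Ctsg together there were 15.3 defensin UMIs in sham cluster 14, 2.22 in UAC cluster 13 and 30.9 in UAC + miR-330 cluster 18. In UAC cluster 18 there were 337, and in sham cluster 10 there were 931. Over whole libraries the ratio was 51.0 in sham, 37.5 in UAC and 30.4 in UAC + miR-330. The early clusters and those rich in mast or basophil markers were also summed, an alternative chosen after seeing the data, over sham 14, UAC 13 and 18, and UAC + miR-330 18 and 19. In these sums the 4 genes were at 2470 CPM in sham (2392 to 2549), 1674 in UAC (1644 to 1706) and 2805 in UAC + miR-330 (2762 to 2849), and they held 64.6%, 85.2% and 84.5% of the UMIs of these genes in their libraries. Mpo was lower in these sums in UAC than in sham, with a log2 ratio of −0.82 (−0.91 to −0.73), and in UAC + miR-330 than in sham, at −0.50 (−0.59 to −0.41). Ctsg was also lower in UAC than in sham, at −0.53 (−0.64 to −0.42), and so was Elane, at −0.44 (−0.54 to −0.34), while Prtn3 at −0.14 (−0.30 to 0.03) was within counting error. In UAC + miR-330 against sham these 3 were higher, Elane at 0.45 (0.36 to 0.55), Prtn3 at 0.74 (0.58 to 0.90) and Ctsg at 0.42 (0.31 to 0.53). The sums hold clusters of unlike content, since sham had no early cluster and its cluster 10 is left out. UAC cluster 18 had only 60.0 CPM of Elane, 10.0 of Prtn3 and 28.2 of Ctsg. In UAC cluster 13 alone, by the levels given above, these 3 were higher than in sham cluster 14, and Mpo was lower. The directions in the sums thus depend on the clusters taken. The defensins were at 37752 CPM, 68651 CPM and 86617 CPM in the same sums.

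**Figure D3:**
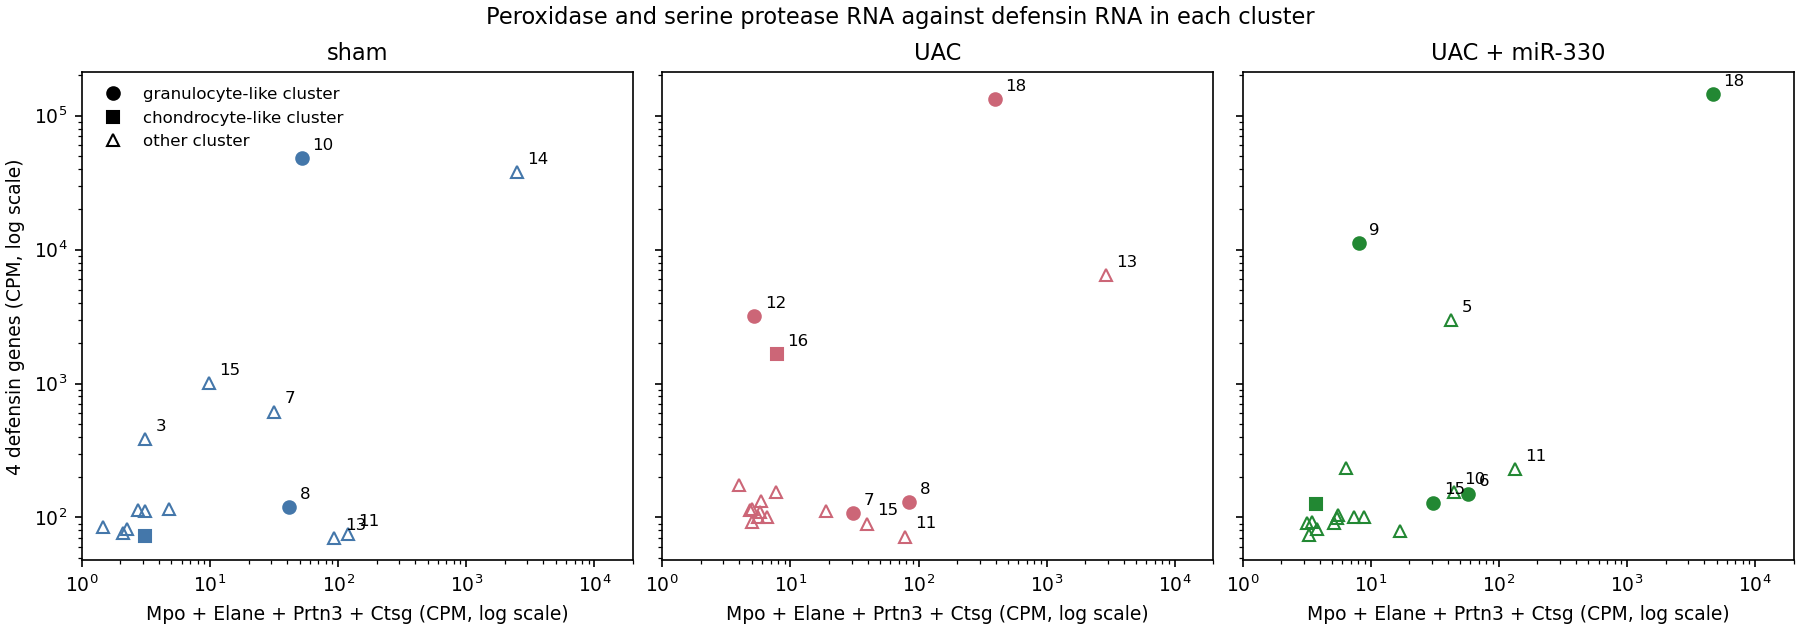
Each point is a cluster, with the summed level of Mpo, Elane, Prtn3 and Ctsg across and the summed level of the 4 defensins upward, both in CPM on log axes, for the 3 libraries; filled circles are granulocyte-like clusters, squares chondrocyte-like clusters and open triangles other clusters. UAC clusters 13 and 18 lie apart, at 2908 and 395 CPM of proteases, while UAC + miR-330 cluster 18 is high on both axes.

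The share of a gene inside the granulocyte-like clusters depended on whether such clusters counted among them. Mpo, Elane, Prtn3 and Ctsg together had 6.31% of their UMIs there in sham (5.71 to 6.96), 12.5% in UAC (11.95 to 13.1) and 85.7% in UAC + miR-330 (85.2 to 86.2). With the clusters rich in mast or basophil markers added, an alternative chosen after seeing the data, the shares were 70.9%, 87.8% and 85.8%. The defensins had 76.2% (76.0 to 76.3), 91.9% (91.9 to 92.0) and 96.8% (96.7 to 96.8) of their UMIs in granulocyte-like clusters, and 95.5%, 96.4% and 96.8% with the added clusters. Serpinb1a had 82.3% in sham, 82.9% in UAC and 87.9% in UAC + miR-330.

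Inside the granulocyte-like clusters, CPM of those clusters take out the share of granulocyte RNA in a library. Mpo was at 27.7 CPM in sham (24.1 to 31.6), 67.9 in UAC (63.8 to 72.2) and 285 in UAC + miR-330 (276 to 294). Elane was at 19.2 CPM in sham (16.3 to 22.6), 34.5 in UAC (31.6 to 37.7) and 425 in UAC + miR-330 (414 to 436). Prtn3 had 3, 39 and 2406 UMIs there, with a log2 ratio of 2.58 (1.13 to 5.12) for UAC against sham and 6.02 (5.58 to 6.53) for UAC + miR-330 against UAC. Ctsg had 5, 106 and 4317 UMIs, with log2 ratios of 3.36 (2.22 to 5.14) and 5.43 (5.16 to 5.73). Past 2-fold were 3 of the 9 genes for UAC against sham (Mpo, Prtn3 and Ctsg, against 2.96% of 10755 genes), 4 for UAC + miR-330 against UAC (10.8% of 11416 genes) and 4 for UAC + miR-330 against sham (13.1% of 11068 genes). The latter 4 were Mpo, Elane, Prtn3 and Ctsg in both comparisons. With 3 and 5 UMIs in sham, Prtn3 and Ctsg reached the minimum of 10 only through the library compared with sham. The counts against sham are therefore given as a description. With the clusters rich in mast or basophil markers added these counts were 1, 0 and 3, beside 3.59%, 23.6% and 25.8% of all genes. Without the early clusters they were 0, 4 and 0, the 4 then being the defensins, beside 2.18%, 7.85% and 7.38% of all genes. Sham had no early cluster, and without those of the UAC libraries Mpo was lower in UAC than in sham, with a log2 ratio of −3.88 (−4.63 to −3.26), and lower in UAC + miR-330 than in sham, at −3.81 (−4.58 to −3.18). Elane then had a log2 ratio of −0.35 (−0.61 to −0.10) for UAC + miR-330 against UAC. The counts and these directions depend on which clusters are taken as granulocyte-like, and those without the early clusters compare clusters of unlike content. The median log2 ratio of the 9 genes was 0.18 for UAC against sham, beside 0.01 for all genes, and 0.54 for UAC + miR-330 against UAC, beside 0.34. The 4 defensins summed to 29534 CPM in the granulocyte-like clusters of sham, 30935 in those of UAC and 41050.1 in those of UAC + miR-330. With the clusters rich in mast or basophil markers added, each of the 4 was lower in UAC than in sham. Their log2 ratios then ran from −0.47 for Defa5 to −0.11 for Defa11. Without the early clusters the sums were 29534 CPM in sham, 1401 in UAC (1379 to 1423) and 6253 in UAC + miR-330 (6205 to 6302), with log2 ratios from −7.39 for Defa11 to −4.12 for RatNP-3b for UAC against sham and from −4.59 for Defa11 to −2.15 for RatNP-3b for UAC + miR-330 against sham. That choice takes the cluster with most defensin RNA from both UAC libraries and keeps sham cluster 10, which held 76.1% of the defensin UMIs of sham and 139.7 CPM of Ms4a3. The choice of clusters thus fixes that the defensins are lower in the UAC libraries, and no difference is read from it. Serpinb1a was at 1914 CPM in sham (1884 to 1945), 2174 in UAC (2150.0 to 2198) and 2196 in UAC + miR-330 (2171 to 2220), and the intervals of the latter pair overlap.

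Elane alone among the 4 was found at some level in late neutrophil clusters, those led by genes such as Retnlg or interferon-induced genes. Elane was at 39.4 CPM in sham cluster 8 (32.6 to 47.1), beside 1.64 CPM of Mpo and 1 UMI each of Prtn3 and Ctsg. In UAC, Elane was at 78.2 CPM in cluster 8 (66.9 to 90.7) and 27.8 in cluster 7 (23.1 to 33.1). In UAC + miR-330, Elane was at 52.1 CPM in cluster 6 (43.4 to 62.0) and 27.6 in cluster 15 (21.0 to 35.5). Prtn3 had 0 UMIs in both of the latter clusters, where 3 UMIs would be 1.23 CPM and 1.38 CPM. Defensins were near the level of other cell types in these late clusters, with Np4 at 41.6 CPM in sham cluster 8, 45.6 in UAC cluster 8 and 45.5 in UAC + miR-330 cluster 6.

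Mpo in turn was found with few UMIs of the proteases in the cluster of each library with most Dntt RNA, which encodes the terminal transferase of early lymphocytes. Mpo was at 114 CPM in sham cluster 11 (103 to 125), 37.0 in UAC cluster 15 (30.7 to 44.1) and 14.4 in UAC + miR-330 cluster 14 (10.8 to 18.9). It was highest in sham, which was its lowest library over all clusters. Elane, Prtn3 and Ctsg together had 21 UMIs beside 431 of Mpo in sham cluster 11. In those clusters 5 of 13 B cell markers were enriched, summing to 16226 CPM in sham, 15101 CPM in UAC and 19409 CPM in UAC + miR-330, with Ebf1 the most abundant. Endothelial markers were enriched there for 3 of 9 in each, summing to 260 CPM, 311 CPM and 362 CPM. Dendritic markers were enriched for 1, 2 and 2 of 12, summing to 1281 CPM, 1602 CPM and 1942 CPM with Tcf4 the most abundant. Markers of blood progenitors were enriched for 1 of 8 in UAC cluster 15, summing to 161 CPM. In UAC + miR-330 cluster 14 they were enriched for 2 of 8, summing to 150 CPM, and in sham cluster 11 for 0. T or NK markers were enriched for 3 of 14 in sham cluster 11, summing to 382 CPM, and Prg2 was at 588 CPM there, while mast or basophil markers were enriched for 3 of 10 in UAC + miR-330 cluster 14, summing to 398 CPM. The part of any of these in the level of Mpo was not tested. Clusters with erythroid markers also held the 4 genes, summing to 93.5 CPM in sham cluster 13 (88.0 to 99.3), 78.5 in UAC cluster 11 (73.9 to 83.3) and 133 in UAC + miR-330 cluster 11 (127 to 139). Erythroid markers there were enriched for 4, 7 and 6 of 12 and summed to 1645 CPM, 3790 CPM and 5350 CPM, with Car1 the most abundant in sham at 526 CPM and Hba-a1 in UAC at 1001 CPM and in UAC + miR-330 at 1988 CPM. B cell markers were enriched in the same clusters for 2 of 13 each, Vpreb1 and Igll1, and summed to 6660.3 CPM, 6273 CPM and 6984 CPM, with Ebf1 the most abundant, and the part of either list in the level of the 4 genes was not tested. These clusters held 17.9%, 8.18% and 10.6% of the UMIs of the 4 genes.

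Serpinb1a had another distribution than its proteases. It was at 2872 CPM (2824 to 2921) in sham cluster 10, and at 612 CPM in sham cluster 14, where the proteases peaked. In UAC it was at 3342 CPM in cluster 18 (3280.1 to 3405), 3153 in cluster 12 (3103 to 3204) and 462 in cluster 13 (439 to 485). In UAC + miR-330 it was at 3601 CPM in cluster 18 (3538 to 3665) and 2787 in cluster 9 (2744 to 2831). Clusters with high Ngp and Lcn2, genes of the secondary granules, thus held the largest share of Serpinb1a RNA, 75.3% in sham cluster 10, 39.0% in UAC cluster 12 and 46.2% in UAC + miR-330 cluster 9. Outside granulocyte-like clusters it was also found with macrophage markers, at 393 CPM in sham cluster 15, 530.3 in UAC cluster 9 and 453 in UAC + miR-330 cluster 10, where 10, 8 and 9 of 14 macrophage markers were enriched. These markers summed there to 3260.5 CPM, 2159.5 CPM and 2025 CPM, with C1qa, Cd14 and Cd68 the most abundant in turn. Early granulocyte markers were also enriched in these clusters, 3, 4 and 4 of 10, and Fcnb, at 1919 CPM, 1801 CPM and 2074 CPM, was among their 10 leading genes, where no macrophage marker was. Dendritic markers were enriched for 5, 5 and 6 of 12 and summed to 9263 CPM, 8011 CPM and 6919 CPM, with Cd74 the most abundant. Mast or basophil markers were enriched for 3 of 10 in sham cluster 15. The part of any of these markers in the level of Serpinb1a was not tested.

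In the clusters that were neither granulocyte-like, chondrocyte-like nor rich in mast or basophil markers, a low defensin level was widespread. Over the 11 such clusters of sham Np4 ranged from 24.2 to 273 CPM with a median of 35.4, over 12 in UAC from 24.7 to 66.5 with a median of 36.9, and over 13 in UAC + miR-330 from 24.1 to 765 with a median of 32.2. Prtn3 had a median of 0.299 CPM in sham, 0.465 in UAC and 0.591 in UAC + miR-330 over the same clusters. The medians for Np4 were close in the 3 libraries. Doublets and free RNA were not treated, and their part in these levels was not tested. The highest of these in UAC + miR-330 was cluster 5, where the defensins summed to 2971 CPM (2908 to 3035). In that cluster 7 of 12 erythroid markers were enriched, summing to 68945 CPM with Hba-a1 at 46032, and 5 of 6 plasma cell markers, summing to 3919 CPM with Jchain at 2463. Macrophage markers were enriched there for 3 of 14, summing to 902 CPM with C1qa at 299. The highest in sham was cluster 15, with macrophage and dendritic markers, 10 of 14 and 5 of 12 enriched, where the defensins summed to 1010.4 CPM (977 to 1045). Mast or basophil markers were enriched there for 3 of 10, summing to 462 CPM with Cpa3 at 166. Early granulocyte markers were enriched for 3 of 10, summing to 2629 CPM with Fcnb at 1919. The part of these cell types in the defensin levels was not tested. Defensin UMIs per S100a8 UMI were 1.61 in UAC + miR-330 cluster 5 and 0.319 in sham cluster 15, beside 0.436 and 0.283 over their libraries.

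The chondrocyte-like clusters, whose values were known when the genes were chosen, are given as a description only. They were sham cluster 12, UAC cluster 16 and UAC + miR-330 cluster 17, with 15, 16 and 17 of 18 chondrocyte markers enriched, which summed to 63474 CPM, 50522 CPM and 65624 CPM. Osteogenic markers were enriched there for 6, 7 and 6 of 11 and summed to 70779.8 CPM, 61301 CPM and 61599 CPM, with none at 0 and Col1a1 the most abundant. Fibroblast markers were enriched for 6 of 12 in each and summed to 10493 CPM, 9955 CPM and 7882 CPM, with none at 0 and Col3a1 the most abundant. The part of these other cell types in the levels of the 9 genes was not tested in these clusters. The 4 defensins together had 657 UMIs in sham, 9946 in UAC and 735 in UAC + miR-330. Np4 was at 23.5 CPM (20.4 to 26.9), 435 (419 to 452) and 38.1 (33.2 to 43.4), and the level in UAC lay above the range of 24.7 to 66.5 CPM in the 12 UAC clusters described just above. Mpo had 13, 32 and 4 UMIs, Elane had 9, 3 and 8, and Defa11 had 2, 137 and 0. In the counts below, Defa11 thus reached the minimum of 10 UMIs only through UAC. The same holds for Mpo between UAC + miR-330 and UAC. Defensin UMIs per S100a8 UMI were 0.153 in sham, 1.02 in UAC and 0.373 in UAC + miR-330, where the whole libraries had 0.283, 0.270 and 0.436. In UAC cluster 18, the early granulocyte cluster, that ratio was 1.17. The ratio of RatNP-3b to Np4 was 1.85 in UAC cluster 16, beside 2.32 in UAC cluster 18 and 1.05 to 1.85 in the same 12 UAC clusters. At 2-fold, 6 of 8 genes with enough UMIs were higher in UAC than in sham, beside 6.33% of 12606 genes, and 6 of 8 were lower in UAC + miR-330 than in UAC, beside 5.43% of 12398 genes. In the latter comparison 1 of 8 was higher, Elane with 8 against 3 UMIs, beside 3.69% of genes, and its log2 ratio of 1.30 (−0.62 to 3.99) is within counting error. Against sham, 2 of 7 were higher in UAC + miR-330, beside 7.61% of 12613 genes. These were RatNP-3b, with a log2 ratio of 1.01 (0.77 to 1.26), and Ctsg with 8 against 6 UMIs, whose log2 ratio of 1.00 (−0.69 to 2.84) is within counting error. Neutrophil markers went with this: the 14 markers summed to 1267 CPM in sham, 4416 in UAC and 875 in UAC + miR-330, with S100a9 the most abundant in sham and UAC and S100a8 in UAC + miR-330. Of these markers 0 of 14 were enriched in each of the 3 clusters, and 1, 0 and 1 were at 0. The secondary granule genes were at 252 CPM in sham, 883 in UAC and 226 in UAC + miR-330, and 9 of 11 with enough UMIs were past 2-fold higher in UAC than in sham and 9 of 11 lower in UAC + miR-330 than in UAC. Of 13 cell cycle genes 6 were higher in UAC than in sham there and 9 lower in UAC + miR-330 than in UAC. The part of neutrophil RNA and of dividing cells in these values was not tested.

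Set against the secondary granule genes, the RNA of Mpo, Elane, Prtn3 and Ctsg was highest in UAC + miR-330. For each 1000 UMIs of 12 secondary granule genes there were 11.4 UMIs of the 4 in sham, 13.5 in UAC and 24.0 in UAC + miR-330. The secondary granule genes themselves were at 6696 CPM in sham (6678 to 6714), 10583 in UAC (10562 to 10604) and 8263 in UAC + miR-330 (8245 to 8281). By cluster the ratio was 1206 in sham cluster 14, 2504 in UAC cluster 13 and 125 in UAC + miR-330 cluster 18, and 7.34 in UAC cluster 18. In the clusters led by Ngp and Lcn2 it was 0.607 in sham cluster 10, 0.0501 in UAC cluster 12 and 0.0884 in UAC + miR-330 cluster 9.

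Other genes of the neutrophil and its granules were taken from 11 lists and counted in the same way over all clusters. Over all clusters the shares of all genes past 2-fold were 4.34% higher and 2.98% lower for UAC against sham, 4.26% and 2.34% for UAC + miR-330 against UAC, and 7.66% and 3.61% for UAC + miR-330 against sham, so in lists this short a count of 0 is near these shares. Past 2-fold were 0 of 16 other primary granule and early granulocyte genes in each of the 3 comparisons, and their median log2 ratio was 0.26 for UAC against sham. Lyz2, lysozyme of several granule types, was at 2029 CPM in sham, 2785 in UAC and 3179 in UAC + miR-330. Srgn, the proteoglycan core that packs granule proteases, was at 608 CPM in sham, 818 in UAC and 870.4 in UAC + miR-330. Cd63, a granule membrane protein, was at 256 CPM, 234 CPM and 195 CPM. Of 12 other defensin names 6 were listed and 1, Defa10, had enough UMIs. It was higher in UAC + miR-330 than in sham at 0.123 CPM against 0.0515 CPM, a level set by 12 and 4 UMIs.

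Among 11 protease inhibitors with enough UMIs, 1 was lower in UAC than in sham, A2m, and 3 were lower in UAC + miR-330 than in sham, A2m, Serpinf1 and Timp1, the last chosen after its values were seen, against 2.98% and 3.61% of all genes lower in these comparisons. None was past 2-fold between UAC + miR-330 and UAC. Serpinf1 was at 89.6 CPM in sham, 66.3 in UAC and 39.9 in UAC + miR-330, and A2m had 22, 12 and 10 UMIs. Slpi, a secreted inhibitor of elastase, was at 124 CPM in sham, 206 in UAC and 137 in UAC + miR-330, with 73.0%, 74.9% and 67.3% of its UMIs in granulocyte-like clusters. Cstb, an inhibitor of cysteine cathepsins, was at 202 CPM, 235 CPM and 167 CPM. Slpi thus had its highest level in UAC, as Serpinb1a had.

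Of 13 transcription factors of granulocyte formation, 1 was past 2-fold higher in UAC than in sham and in UAC + miR-330 than in sham, beside 4.34% and 7.66% of all genes. It was Gata2, at 4.69 CPM in sham, 9.62 in UAC and 12.9 in UAC + miR-330; Gata2 also counts among the mast or basophil markers. Runx1 was at 486 CPM, 538 CPM and 714 CPM, with 2.43%, 3.26% and 3.54% of its UMIs in granulocyte-like clusters. Cux1 was at 344 CPM, 358 CPM and 438 CPM. Myb, expressed in progenitors of the blood, was at 306 CPM, 349.7 CPM and 429 CPM. Past 2-fold were 0 of 12 secondary granule genes in each comparison, which is near the shares of all genes, with medians of 0.56 for UAC against sham and −0.22 for UAC + miR-330 against UAC. Camp, which encodes the cathelicidin of rat neutrophils, was at 2833 CPM in sham, 4355 in UAC and 3625 in UAC + miR-330. Ngp was at 2201 CPM, 3642 CPM and 2249 CPM. Lcn2, which binds bacterial siderophores, was at 471 CPM, 815 CPM and 744 CPM. The order of the libraries for these 3 genes, highest in UAC, was that of Serpinb1a and not that of the proteases.

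Among tertiary granule and late neutrophil genes, Cxcr2, named after its values were seen, was past 2-fold higher in UAC + miR-330 than in sham. S100a9 was at 20766 CPM in sham, 33370.3 in UAC and 23125 in UAC + miR-330, and Retnlg at 739 CPM, 1031 CPM and 664 CPM. Of 13 cell cycle genes, 14 genes of protein synthesis and folding in the secretory pathway and 5 NADPH oxidase subunits, 0 were past 2-fold in each of the 3 comparisons over all clusters, which is again near the shares of all genes. Mki67, a marker of dividing cells, was at 254 CPM, 238 CPM and 469 CPM, Top2a at 295 CPM, 275 CPM and 391 CPM, and Tubb5 at 913 CPM, 747 CPM and 487 CPM. Hspa5, a chaperone of the endoplasmic reticulum, was at 255 CPM, 312 CPM and 367 CPM, Hsp90b1 at 222 CPM, 257 CPM and 357 CPM, and Ssr4 at 362 CPM, 312 CPM and 264 CPM. Cybb, the catalytic subunit of the oxidase that makes the superoxide from which the substrate of Mpo forms, was at 274 CPM, 383 CPM and 447 CPM. Rac2 was at 470.5 CPM, 460.0 CPM and 369.9 CPM, and Cyba at 309 CPM, 361 CPM and 326 CPM.

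Of 10 receptors for proteases and peptides, 1 was past 2-fold higher in UAC than in sham, Ccr6, beside 4.34% of all genes, and 1 in UAC + miR-330 than in UAC, F2rl3 with 17 against 7 UMIs, beside 4.26%. Ccr6 and F2r, the latter named after its values were seen, were higher in UAC + miR-330 than in sham, beside 7.66%. Fpr2, which binds formyl peptides and cathelicidin, was at 43.7 CPM in sham, 75.0 in UAC and 62.1 in UAC + miR-330, with 93.0%, 90.8% and 93.2% of its UMIs in granulocyte-like clusters. Tlr2 was at 25 CPM, 39.5 CPM and 30.2 CPM, and F2rl2 at 6.33 CPM, 9.34 CPM and 5.60 CPM. Ccr6 was at 2.15 CPM, 6.21 CPM and 8.70 CPM, and F2rl3 at 0.116 CPM, 0.0756 CPM and 0.175 CPM. Among 8 matrix proteins of cartilage that granule proteases can cut, Col2a1, Comp, Bgn and Acan, the last named after its values were seen, were past 2-fold lower in UAC than in sham, and Prg4 was higher, against 2.98% of all genes lower and 4.34% higher. Between UAC + miR-330 and UAC, Prg4 was higher and 0 were lower, and against sham Prg4 was higher and 3 were lower, Col2a1, Comp and Bgn, against 7.66% of all genes higher and 3.61% lower. Col2a1 was at 3210 CPM in sham, 1273 in UAC and 1520 in UAC + miR-330, and Prg4 at 1.39 CPM, 3.69 CPM and 7.65 CPM. The chondrocyte-like cluster also held a smaller share of the UMIs in both UAC libraries, so these sums cannot tell fewer chondrocytes from less RNA per cell. Inside that cluster 0 of the 8 were past 2-fold lower in UAC or in UAC + miR-330 than in sham. The share of all genes lower there was not computed, and nothing is read from that count. Prg4 was higher there in both, and Matn3 in UAC + miR-330, beside 6.33% of all genes for UAC and 7.61% for UAC + miR-330. The median log2 ratio for UAC against sham was −0.06 there, beside −0.79 over all clusters.

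Inside the granulocyte-like clusters, 2 of the 16 other primary granule and early granulocyte genes, Prss57 and Cst7, were past 2-fold higher in UAC + miR-330 than in UAC and than in sham, and 0 for UAC against sham. That count of 2 is near the shares of all genes, 10.8% against UAC and 13.1% against sham. The call for Prss57 depends on the choice of clusters. Its 37 UMIs in UAC + miR-330 cluster 18 were counted, while 29 in UAC cluster 13 and 13 in sham cluster 14 were not. Gata2, also a mast or basophil marker, was higher in the same 2 comparisons and lower in UAC than in sham. Higher in UAC + miR-330 than in UAC were also 2 of 13 cell cycle genes, Mki67 and Rrm2, and 2 of 14 secretory pathway genes, Calr and Pdia4, beside 10.8% of all genes; the names in these counts were given after their values were seen. The median log2 ratio of the secretory pathway list was 0.72 and that of the cell cycle list 0.23 in that comparison, beside 0.34 for all genes. Against sham, 4 of 13 cell cycle genes, Mki67, Rrm2, Mcm2 and Mcm3, and 4 of 14 secretory pathway genes, Hsp90b1, Calr, Canx and Pdia4, were higher in UAC + miR-330, beside 13.1% of all genes.

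Across the 52 clusters of the 3 libraries, Mpo, Elane, Prtn3 and Ctsg were more alike among themselves than they were to the defensins. Pearson r of log2(CPM + 1) ran from 0.74 to 0.96 over the 6 pairs of the former, highest for Prtn3 and Ctsg, and from 0.95 to 0.99 over the 6 pairs of defensins. Between both sets r ran from 0.58 to 0.72 over 16 pairs. Serpinb1a had r from 0.37 to 0.62 with the former and from 0.64 to 0.74 with the defensins. Clusters of a library share its depth and its free RNA, so these values are descriptions. Among 8954 genes with at least 500 UMIs in each library, the 10 most like the mean of Mpo, Elane, Prtn3 and Ctsg were Ms4a3 (r 0.82), Mcpt1l4 (0.78), Prg2 (0.77), Mcpt8l2 (0.76), AC098959.1 (0.76), Mcpt10 (0.75), Mcpt2 (0.72), Srgn (0.67), Nkg7 (0.65) and Alas1 (0.64). The 10 most like the defensin mean were Ms4a3 (0.94), Alas1 (0.80), Pecr (0.74), Retn (0.74), Cebpe (0.71), Inhba (0.71), Ggh (0.71), Camp (0.69), Nkg7 (0.69) and Qsox1 (0.69). Ms4a3 thus led both lists, and it was highest where both sets were high, at 573 CPM in UAC + miR-330 cluster 18, beside 383 in UAC cluster 18, 243 in sham cluster 14 and 163 in UAC cluster 13. Of the markers used to name the clusters, the first list held Ms4a3 (early granulocyte), Mcpt2 (mast or basophil), Prg2 (eosinophil) and Nkg7 (T or NK), and the second Ms4a3 and Cebpe (early granulocyte), Camp (neutrophil) and Nkg7. Ranked by Spearman rho in place of r, 0 of the first 10 and 2 of the second 10 remained among the leading 10.

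In the gene order of the rat reference, Elane and Prtn3 are neighbours on chromosome 7, and Np4, Defa11 and RatNP-3b follow each other on chromosome 16, where Defa5 also lies. Ctsg lies on chromosome 15 beside Mcpt10, a gene among the 10 most like the mean of Mpo, Elane, Prtn3 and Ctsg, Mpo on chromosome 10 beside Lpo, another peroxidase gene, and Serpinb1a on chromosome 17 beside Serpinb6b. RefSeq promoters of build GRCr8, 250 bases before to 50 after the start of a gene, were found for 7 of the 9 genes; Elane and Defa5 have none printed here. Np4, Defa11 and RatNP-3b were highest in the same cluster of each library, and Mpo, Prtn3 and Ctsg were highest in another cluster in sham and UAC but in the same cluster 18 in UAC + miR-330. For this reason the promoters of these 6 genes are shown, 5′ to 3′ on the strand of the gene. Capitals mark the letters of motifs of factors known in granulocyte or basal transcription, searched on both strands: TTGCNNAA for C/EBP (in 10.6% of 33469 promoters of this length), GAGGAA for ETS factors (27.6%), TGTGGT for RUNX (17.3%), TATAAA (14.2%) and the variant TAAATA (14.7%). The defensin promoters are from chr16:77199593-77199892 for Np4, chr16:77237992-77238291 for Defa11 and chr16:77248928-77249227 for RatNP-3b, each on the minus strand. Those of the others are from chr10:73092152-73092451, plus strand, for Mpo, chr7:10476147-10476446, minus strand, for Prtn3 and chr15:33907547-33907846, minus strand, for Ctsg.
Np4: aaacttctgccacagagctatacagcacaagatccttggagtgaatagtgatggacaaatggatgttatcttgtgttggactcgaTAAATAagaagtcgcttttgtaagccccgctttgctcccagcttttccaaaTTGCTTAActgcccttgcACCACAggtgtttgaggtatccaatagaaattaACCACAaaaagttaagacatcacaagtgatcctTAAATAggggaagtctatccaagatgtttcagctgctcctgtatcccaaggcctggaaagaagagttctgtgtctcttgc
Defa11: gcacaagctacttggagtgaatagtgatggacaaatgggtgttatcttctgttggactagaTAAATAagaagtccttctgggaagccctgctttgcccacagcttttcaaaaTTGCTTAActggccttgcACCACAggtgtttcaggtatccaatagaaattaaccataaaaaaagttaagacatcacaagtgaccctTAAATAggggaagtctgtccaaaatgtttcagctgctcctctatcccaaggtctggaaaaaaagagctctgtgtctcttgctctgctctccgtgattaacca
RatNP-3b: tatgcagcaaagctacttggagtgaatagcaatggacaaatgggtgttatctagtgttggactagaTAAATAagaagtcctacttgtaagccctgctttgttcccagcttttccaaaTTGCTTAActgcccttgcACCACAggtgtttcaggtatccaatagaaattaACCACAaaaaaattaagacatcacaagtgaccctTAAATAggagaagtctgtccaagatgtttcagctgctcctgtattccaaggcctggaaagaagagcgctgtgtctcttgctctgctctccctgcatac
Mpo: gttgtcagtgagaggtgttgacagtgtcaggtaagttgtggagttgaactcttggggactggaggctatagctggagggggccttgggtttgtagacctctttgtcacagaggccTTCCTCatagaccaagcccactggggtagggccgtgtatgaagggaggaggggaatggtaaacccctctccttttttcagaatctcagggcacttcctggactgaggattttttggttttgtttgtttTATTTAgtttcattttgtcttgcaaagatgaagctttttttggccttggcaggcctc
Prtn3: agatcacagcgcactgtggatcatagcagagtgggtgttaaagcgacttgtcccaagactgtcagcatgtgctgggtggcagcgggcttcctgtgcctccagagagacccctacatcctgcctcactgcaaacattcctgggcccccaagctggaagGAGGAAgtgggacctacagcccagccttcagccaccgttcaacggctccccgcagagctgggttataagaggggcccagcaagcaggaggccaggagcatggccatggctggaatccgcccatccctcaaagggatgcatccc
Ctsg: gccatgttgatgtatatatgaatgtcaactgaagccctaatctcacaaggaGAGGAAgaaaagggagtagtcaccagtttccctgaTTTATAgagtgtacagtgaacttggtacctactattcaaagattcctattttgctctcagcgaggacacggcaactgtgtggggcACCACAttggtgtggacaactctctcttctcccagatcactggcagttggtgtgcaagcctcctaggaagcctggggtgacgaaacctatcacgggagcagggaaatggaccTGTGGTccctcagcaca

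The letters for C/EBP were found in 3 of the 7 promoters, those of Np4, Defa11 and RatNP-3b, beginning 114, 138 and 133 bases before the start, in each case as TTGCTTAA. The letters for RUNX were found in 4, the same 3 and Ctsg, and TAAATA also in 4, the same 3 and Mpo. GAGGAA was found in Mpo, Prtn3, Ctsg and Serpinb1a and in none of the 3 defensin promoters, and TATAAA in Ctsg and Serpinb1a. The 3 defensin promoters were alike throughout: 93.2% of 280 aligned bases were the same in Np4 and RatNP-3b, 92.4% of 275 in Np4 and Defa11, and 92.2% of 294 in Defa11 and RatNP-3b. Matches are descriptions of these windows and say nothing of binding, and with promoters so alike the 3 defensins do not count as separate matches.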

How the data were processed

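Cartilage and subchondral bone of rat condyles were measured by 10x Genomics single-cell RNA sequencing in 3 libraries, 1 per condition, grouped by the titles in the labels, and which AAV each UAC group received was taken from the study's methods. The authors made the deposited tables with Cell Ranger 7.0, STAR and Seurat 4.0.1, the tools named in the submitters' processing notes. The genome build of the tables is not given in the sources used here: the labels list GRCh38 and mm10, while the identifiers are those of rat genes. In the deposited tables the signal of each gene is its mean count in a cluster, which the authors scaled so that each cluster of a library has the same total. The log2 fold changes and adjusted p-value columns that the authors deposited hold their own comparisons of a cluster with the rest, and they were not used.

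Each mean was divided by the smallest positive mean of its column, which gave whole UMIs for 100% of values, with a largest deviation of 1.04e-07. UMIs were summed by gene name and set to CPM. Each of the 9 genes matched 1 identifier in each table. The libraries held 77668015 (sham), 92629658 (UAC) and 97255383 (UAC + miR-330) UMIs; depth per cell is unknown. Ratios used a pseudocount of 0.5 UMI, genes with 10 or more UMIs summed over both libraries and a 2-fold limit. With 1 library per condition no count model was run and no p-value was computed. Intervals are exact 95% intervals (Poisson, Clopper-Pearson for shares). A marker counted as enriched in a cluster with at least 10 UMIs, 50 CPM and a log2 fold of at least 1 over the other clusters, and naming a cluster took at least 3 markers. Doublets and free RNA were not treated.

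The members and lists were chosen with earlier results of these data known. Named genes were the 9 members, per list the 3 with most UMIs and up to 3 with the largest ratio past 2-fold, the 10 genes most like each mean, and up to 3 most abundant markers of another cell type; further list genes past 2-fold were named after their values were seen. Motif letters were chosen after the sequences were seen. Alternatives were another pseudocount, fold limit, UMI minimum, denominator, scale, identifier rule, marker limit, set of clusters, gene set for the secondary granule and measure of likeness. The set with clusters rich in mast or basophil markers (at least 6 enriched), and the ratios of single genes under other sets of clusters, were chosen after seeing the data. Protein sequences were not used here, and 1 gene of the tertiary granule and late neutrophil list, with the counts it enters, is not reported here. The scripts were tested on simulated data and used Python 3.11.15, numpy 2.4.6, pandas 2.3.3, scipy 1.17.1, matplotlib 3.10.9 and Biopython 1.88.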

Additional observations from a re-analysis of the deposited data

How the results depend on the processing

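Of 121 alternative values for 43 results, 60 lay within the interval of the value or within 1.5 times the count in the report, 54 did not and 7 had the opposite sign to a called direction; for those below the cause was not tested. The 7 were log2 ratios in granulocyte-like clusters, examined gene by gene after seeing the data. Without the early clusters they were −3.88 for Mpo in UAC against sham, −3.81 for Mpo in UAC + miR-330 against sham and −0.35 for Elane in UAC + miR-330 against UAC, in place of 1.29, 3.36 and 3.62; Prtn3 had under 10 UMIs there and was not compared. In the early clusters and those rich in mast or basophil markers alone they were −0.82 for Mpo, −0.14 for Prtn3 and −0.53 for Ctsg in UAC against sham, in place of 1.29, 2.58 and 3.36, and −0.50 for Mpo in UAC + miR-330 against sham, in place of 3.36. The value for Prtn3 is within counting error (−0.30 to 0.03) and shows no reversed direction. Leaving out the early clusters takes clusters from the UAC libraries only, which fixes part of these values. The early and mast-rich set is uneven too, since sham had no early cluster. UAC cluster 18, with 10.0 CPM of Prtn3 and 28.2 of Ctsg, enters the UAC sum only. In UAC cluster 13 alone both genes were higher than in sham cluster 14, and Mpo was lower, so no reversed direction is read for Ctsg. At 1.5-fold in place of 2-fold, 5 of the 9 genes were higher in UAC than in sham, 2 in UAC + miR-330 than in UAC and 7 in UAC + miR-330 than in sham, where 3, 0 and 3 had been; 9.86%, 13.8% and 21% of all genes were past that fold. On the scale of the deposited mean counts 7 were higher in UAC + miR-330 than in sham, beside 21.7% of all genes. In granulocyte-like clusters without the early clusters, 0 were higher for UAC against sham and 0 for UAC + miR-330 against sham, in place of 3 and 4. For UAC + miR-330 against UAC the count stayed at 4 and is among the 60, but its genes changed. They were the 4 defensins in place of Mpo, Elane, Prtn3 and Ctsg. With the clusters rich in mast or basophil markers added, 1 was higher for UAC against sham and 0 for UAC + miR-330 against UAC, in place of 3 and 4. In the chondrocyte-like cluster a pseudocount of 5 left 1 gene higher in UAC + miR-330 than in sham, in place of 2.

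With the same clusters added, the shares in sham and UAC were 70.9% and 87.8% for Mpo, Elane, Prtn3 and Ctsg, 95.5% and 96.4% for the defensins, and 87.6% and 87% for Serpinb1a. Without mitochondrial, ribosomal, haemoglobin and immunoglobulin genes in the denominator, which held 19.0%, 17.6% and 15.7% of the UMIs of sham, UAC and UAC + miR-330, the levels in that order were 94.2, 173 and 235 CPM for Mpo, Elane, Prtn3 and Ctsg, 4808, 6487 and 7148 CPM for the defensins, and 288, 505 and 421 CPM for Serpinb1a. Per 1000 UMIs of Ltf, Camp and Ngp alone, the 4 peroxidase and protease genes had 15.2, 17.8 and 33.7 UMIs. By Spearman rho, 0 and 2 of the 10 genes most like the protease and defensin means were shared with the lists by Pearson r. No paired analysis was possible because each group has 1 library. Counting error is the only error the intervals hold, and differences between rats or pools were not measurable.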
